A study of Mus musculus with 21 samples.

Results

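Bisphenol-A and stigmasterol were compared in the testes of FXRalpha knockout mice at postnatal day 10, with 3 knockout animals given bisphenol-A (BPA) and 3 given stigmasterol. These 6 libraries were all those labelled FXRalpha knockout with either agent, out of 21 RNA-seq libraries in the series, and no vehicle library entered the comparison itself. Each library came from the whole testis of 1 animal, and all animals were of the same mixed strain, labelled as 50% 129sv and 50% C57Bl6. Both groups therefore carried the knockout, and the labels set them apart by the agent. The labels give no haplotype for any animal, so at single loci an effect of the agent and strain variants that differ between the animals cannot be told apart. The groups were knockout with BPA (animals T25, T83 and T117), knockout with stigmasterol (T10, T15 and T93), knockout with vehicle (T1, T90 and T110), and wild type with BPA, with stigmasterol and with vehicle, at 4 animals each. Neither the dose, route and duration of treatment nor the litters are stated in the labels, and the deleted part of the gene is not stated either. Animals of 1 group are taken as separate samples. The p-values use 1 spread per gene, estimated within all 6 groups over the 21 libraries, vehicle and wild type included.

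FXRalpha, encoded by Nr1h4, is a nuclear receptor that bile acids activate, and in liver and gut it controls the synthesis and transport of bile acids, partly by inducing the corepressor Nr0b2 (SHP). BPA is an industrial monomer of plastics that binds estrogen receptors weakly. Stigmasterol is a plant sterol that is known as an antagonist of FXR, and in cells it can also act on LXR and on the SREBP2 control of cholesterol synthesis. At this age the mouse testis holds dividing Sertoli cells, spermatogonia and the first spermatocytes entering meiosis, together with Leydig cells that make androgens. Lymphotoxin alpha (Lta) and lymphotoxin beta (Ltb) are cytokines of the tumour necrosis factor family, made mainly by lymphocytes. They form a trimer on the cell surface that binds the lymphotoxin beta receptor (Ltbr), which signals through NF-kB-inducing kinase (Map3k14) to the NF-kB subunits Nfkb2 and Relb.

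Which genes were called between BPA and stigmasterol in knockout testis depended on the fit, as given below. With edgeR over all 21 libraries they were Lta and Ltb, 2 of 20254 tested, at an adjusted p under 0.05. Because they lie on chromosome 17 within 10 kb of each other, with Tnf between them, the sequences at their starts are shown first. Each runs from 250 bases before the RefSeq start to 50 after it, 5′ to 3′ on the gene's strand, from the RefSeq promoter table of build GRCm38.p6. The Lta promoter lies at chr17:35205302-35205601 on the minus strand and the Ltb promoter at chr17:35194257-35194556 on the plus strand. Capitals mark each match to GGGNNNNNCC, a loose core of the NF-kB site, searched on both strands, where overlapping matches run together.
Lta promoter: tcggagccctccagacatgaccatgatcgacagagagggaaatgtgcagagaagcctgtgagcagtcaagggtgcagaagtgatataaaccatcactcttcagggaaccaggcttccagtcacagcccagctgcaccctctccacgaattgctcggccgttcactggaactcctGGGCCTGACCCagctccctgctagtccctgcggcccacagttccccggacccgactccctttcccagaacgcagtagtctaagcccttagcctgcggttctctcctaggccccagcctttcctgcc
Ltb promoter: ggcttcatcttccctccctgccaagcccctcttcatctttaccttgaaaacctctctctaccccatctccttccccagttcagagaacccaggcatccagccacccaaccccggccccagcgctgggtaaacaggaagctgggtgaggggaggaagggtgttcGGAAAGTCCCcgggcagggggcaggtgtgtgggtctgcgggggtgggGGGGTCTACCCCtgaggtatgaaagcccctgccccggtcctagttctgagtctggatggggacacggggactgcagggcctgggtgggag
The Lta stretch held 2 overlapping matches and 1 TATAAA, and the Ltb stretch held 4 matches, of which 3 overlap, and no TATAAA. A match to GGGNNNNNCC stood in 50.8% of the 32851 mouse promoters of the same length, and TATAAA in 13.6%, so these matches are a description of the letters and not of any binding.

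The 6 libraries held between 40261602 and 57987087 counted reads, within the range of 35459523 to 61498855 over all 21. Levels are given as CPM, counts of a gene scaled to normalized library size. The floor used here, 3 reads, corresponds to 0.0488 to 0.0846 CPM of the total counts, depending on the library. Markers of testis cell types were present throughout, with the Sertoli cell gene Wt1 at 280 to 309 CPM with BPA and 288 to 337 CPM with stigmasterol. The germ cell gene Ddx4 was at 188 to 261 CPM with BPA and 194 to 268 CPM with stigmasterol. RNA of neighbouring tissue was present in some libraries and not in others. Cdh16, a cadherin of the epididymal and efferent duct epithelium, was at 0.411, 17.6 and 27.9 CPM in T25, T83 and T117 with BPA, against 86.0, 0.949 and 203 CPM in T10, T15 and T93 with stigmasterol. Nr1h4 itself was low, at 0.343, 0.492 and 0.172 CPM with BPA and 0.318, 0.331 and 0.308 CPM with stigmasterol, against 0.241 to 0.868 CPM over the 12 wild-type libraries. With the deleted part unknown, these counts do not check the genotype labels.

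The comparison of all genes gave few calls. Of 20254 genes tested with edgeR's quasi-likelihood test and Benjamini-Hochberg adjustment, 2 differed at an adjusted p under 0.05, which is 0.00987% of them, and both were lower with BPA. No gene (0.0%) was called higher with BPA in this test, 377 genes (1.86%) were higher at an unadjusted p under 0.05, and DESeq2 called 3 higher (C1rl, Ccdc167 and Defb40) and 3 lower (Lta, Ltb and H2-Q1). At an unadjusted p under 0.05 there were 842 genes in both directions (4.16%), of which 465 were lower (2.3%). The 3 libraries with BPA did not overlap the 3 with stigmasterol for 1784 genes (8.81%). On a principal component analysis of the 6 libraries the first axis, with 39.9% of the variance, did not separate the agents. It placed T25 at -46.3, T83 at -0.85 and T117 at 37.5 with BPA, and T10 at 1.85, T15 at -39.6 and T93 at 47.4 with stigmasterol.

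Lta (ENSMUSG00000024402, chromosome 17, 35203165 to 35205351 in mm10) was at 0.206, 0.134 and 0.123 CPM in the 3 knockout testes with BPA, from 9, 6 and 5 reads. With stigmasterol it was at 1.45, 1.06 and 0.906 CPM, from 64, 48 and 53 reads, so that every value with BPA lay below every value with stigmasterol. The means were 0.154 ± 0.0448 CPM with BPA and 1.14 ± 0.282 CPM with stigmasterol (SD, n = 3 each). Lta fell by 2.86 ± 0.38 on the log2 scale with BPA relative to stigmasterol (fitted SE; 95% interval -3.65 to -2.06), with an edgeR adjusted p of 0.01. Knockout testes with vehicle were at 1.27, 1.32 and 1.65 CPM, near the stigmasterol group. With the mixed strain, this difference at Lta and an inherited difference between the animals at that locus cannot be told apart. Against that vehicle group the log2 fold change was -3.17 ± 0.379 for BPA (edgeR adjusted p 0.00111) and -0.31 ± 0.315 for stigmasterol (edgeR adjusted p 1.0), and both of these comparisons use the same vehicle animals.

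Ltb (ENSMUSG00000024399, chromosome 17, 35194439 to 35196320), the membrane-anchored partner, was at 0.845, 1.07 and 0.836 CPM with BPA, from 37, 48 and 34 reads. With stigmasterol it was at 3.09, 2.14 and 2.68 CPM, from 136, 97 and 157 reads, again with no overlap between the groups. The means were 0.918 ± 0.134 CPM with BPA and 2.64 ± 0.474 CPM with stigmasterol (SD, n = 3 each). Ltb fell by 1.52 ± 0.23 on the log2 scale with BPA relative to stigmasterol (95% interval -2.0 to -1.04), with an edgeR adjusted p of 0.0296. Knockout testes with vehicle stood highest, at 4.8, 3.84 and 4.41 CPM. Against them the log2 fold change was -2.24 ± 0.232 for BPA (edgeR adjusted p 0.000246) and -0.72 ± 0.217 for stigmasterol (edgeR adjusted p 1.0).

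**Figure D1:**
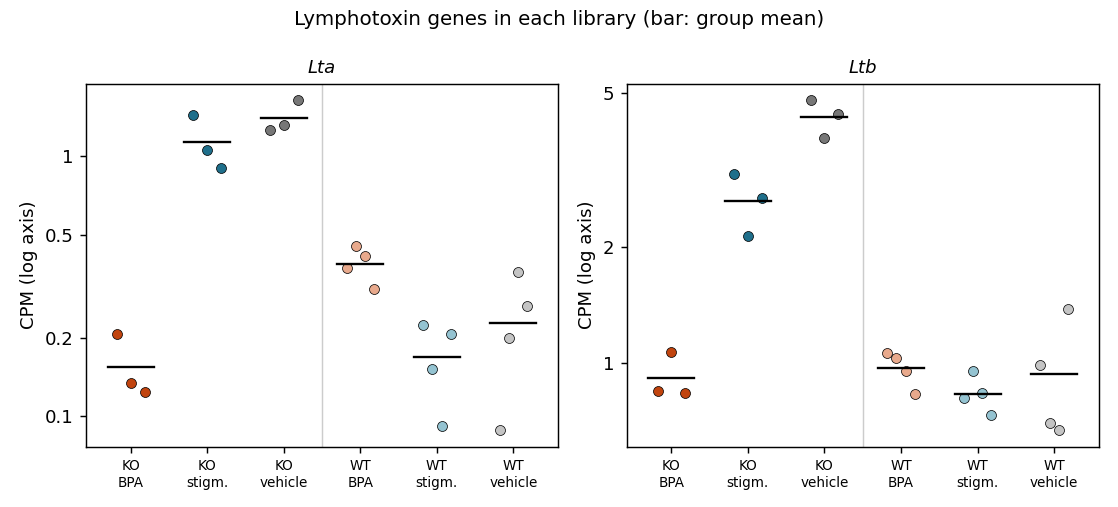
CPM of Lta and Ltb in each library on a log axis, by group, each point 1 animal and each bar a group mean, with KO for knockout and WT for wild type. The 3 knockout libraries with BPA lie below the 3 with stigmasterol and the 3 with vehicle for both genes, and among the wild-type libraries.

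In wild-type testis both genes were below the knockouts with stigmasterol and with vehicle. Lta was at 0.307 to 0.453 CPM in the 4 wild types with BPA, 0.0909 to 0.223 CPM with stigmasterol and 0.0878 to 0.358 CPM with vehicle, and the 4 wild types with BPA all lay above the 3 knockouts with BPA. Ltb was at 0.833 to 1.06 CPM with BPA, 0.736 to 0.952 CPM with stigmasterol and 0.67 to 1.38 CPM with vehicle. All 3 values of each gene in the knockouts with BPA lay inside the range of the 12 wild types, and none of those in the knockouts with stigmasterol or vehicle did. The wild-type difference between BPA and stigmasterol was 1.21 ± 0.34 for Lta on the log2 scale (edgeR adjusted p 0.18) and 0.21 ± 0.203 for Ltb (edgeR adjusted p 0.665). The treatment difference in knockouts minus that in wild types was -4.07 ± 0.509 for Lta (95% interval -5.13 to -3.0; edgeR adjusted p 0.00426). Lta was the only gene of 20254 called in that test of the difference, 0.00494% of them. For Ltb the same quantity was -1.73 ± 0.306, with an edgeR adjusted p of 0.182.

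These calls rest on few animals. With the 9 knockout libraries alone the edgeR adjusted p was 0.0901 for Lta and 0.271 for Ltb, and with the 6 libraries alone it was 0.14 and 0.494 for the same genes. Without T83 neither gene was called, at 0.101 for Lta and 0.101 for Ltb, nor without T10, at 0.0855 for Lta and 0.156 for Ltb. Ltb alone was lost without T25 (0.175), T117 (0.0973) or T93 (0.142), and both were called without T15 (0.0134 for Lta and 0.0134 for Ltb). The log2 fold change kept its sign in each of the 17 alternatives, between -3.1 and -2.35 for Lta and between -1.64 and -1.22 for Ltb.

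The receptors, signalling genes and lymphocyte markers around the lymphotoxins gave no call. The receptor Ltbr was at 37.6, 39.5 and 46.8 CPM with BPA and 37.4, 38.0 and 53.2 CPM with stigmasterol, a log2 fold change of -0.06 ± 0.15. Relb, the NF-kB subunit of this pathway, was at 17.3, 16.8 and 15.3 CPM with BPA and 17.5, 16.0 and 18.4 CPM with stigmasterol. Nfkb2, its partner, differed by 0.1 ± 0.107 on the log2 scale. In all, 11 such genes were chosen after the calls were seen. They were the receptors Ltbr, Tnfrsf1a, Tnfrsf1b and Tnfrsf14, the signalling genes Map3k14, Traf3, Nfkb2 and Relb, and the targets Ccl19, Ccl21a and Madcam1. Of these 11, 1 passed an unadjusted p of 0.05, against 4.16% of all genes. The gene that passed was Tnfrsf14, at 1.28, 0.849 and 1.6 CPM with BPA against 0.499, 0.751 and 0.804 CPM with stigmasterol. The 14 lymphocyte markers summed to 19.6, 20.7 and 19.9 CPM with BPA and to 19.9, 19.5 and 18.9 CPM with stigmasterol, and none of them passed an unadjusted p of 0.05. In whole-testis RNA, fewer cells of a type and less RNA per cell cannot be told apart.

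The lymphotoxin genes sit inside the major histocompatibility complex (MHC), the gene-dense stretch that also encodes class I and class II antigen-presenting molecules. Within 300 kb of Lta, 8 of 51 genes tested passed an unadjusted p of 0.05, Lta and Ltb among them. Within 2 Mb, 21 of 188 did, 11.2% against 4.16% of all genes, with 6 higher and 15 lower with BPA. This stretch was chosen because the called genes lie in it, so its share is a description. Of 361 windows of 5 Mb with at least 20 genes tested, the one at 35 to 40 Mb of chromosome 17 ranked 11, at 13.5%. The highest was the window of the Hoxa cluster on chromosome 6, with 11 of 48 genes, or 22.9%.

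**Figure D2:**
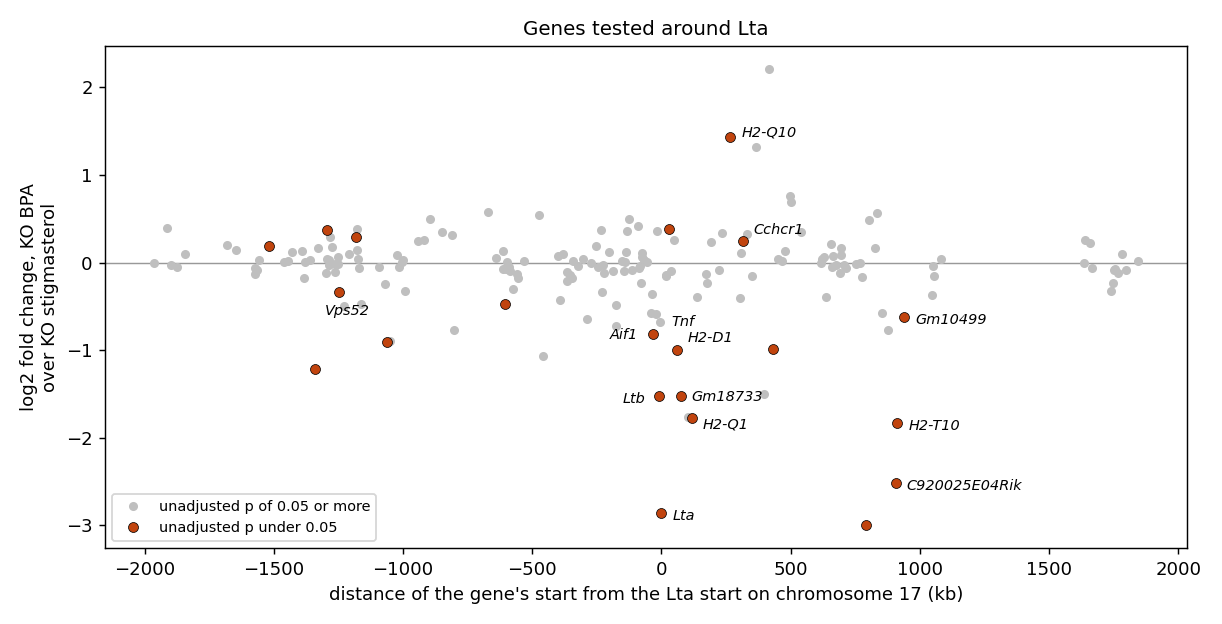
Log2 fold change of BPA over stigmasterol in knockout testis for the 188 genes tested within 2 Mb of Lta, by the distance of their starts from that of Lta in kb. The 21 genes at an unadjusted p under 0.05 are spread over the stretch, 15 of them below 0 and 6 above, with Lta at -2.86 and Ltb at -1.52.

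Tnf, which lies between Ltb and Lta, was at 0.16, 0.268 and 0.123 CPM with BPA and 0.25, 0.221 and 0.41 CPM with stigmasterol, with overlapping groups (log2 fold change -0.68 ± 0.429, unadjusted p 0.131). Bag6, a chaperone gene among the nearby ones, was at 442, 445 and 461 CPM with BPA and 435, 440 and 446 CPM with stigmasterol. Bag6 thus differed by 0.03 on the log2 scale, while Lta and Ltb in the same stretch differed by more than 1. Aif1, a calcium-binding protein of macrophages that is also encoded here, was at 1.94, 2.68 and 1.99 CPM with BPA and 4.95, 3.2 and 3.47 CPM with stigmasterol (unadjusted p 0.00345).

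The MHC class I genes did not share a direction, and their near-identical copies make the counts of each one uncertain. H2-D1, a classical class I gene, was at 50.1, 38.5 and 39.9 CPM with BPA and 114, 71.9 and 70.5 CPM with stigmasterol. H2-Q1, a nonclassical one, was at 1.14, 0.626 and 0.91 CPM with BPA and 4.06, 2.6 and 2.5 CPM with stigmasterol, with a log2 fold change of -1.77 ± 0.404 and an edgeR adjusted p of 0.973. H2-T10 was at 0.411, 0.559 and 0.32 CPM with BPA and 2.11, 1.99 and 0.564 CPM with stigmasterol. For these 3 genes no value with BPA reached the lowest with stigmasterol, although in H2-T10 the values 0.559 and 0.564 CPM nearly touched. H2-Q10, which encodes a secreted class I protein known from liver, went the other way, with 67.8, 77.9 and 64.9 CPM with BPA and 2.16, 34.7 and 40.8 CPM with stigmasterol. Its log2 fold change was 1.44 ± 0.532 (edgeR adjusted p 0.973), with T10 at a level far below the other stigmasterol animals.

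Vehicle and wild-type animals frame these values. H2-Q10 was at 2.09, 1.81 and 1.67 CPM in knockouts with vehicle, against 46.3 to 89.6 CPM over the 12 wild types, so all 3 knockouts with BPA lay in the wild-type range and T10, at 2.16 CPM, lay just above the vehicle animals. Against the vehicle group the log2 fold change of H2-Q10 was 5.24 ± 0.654 for BPA (edgeR adjusted p 0.00137) and 3.8 ± 0.627 for stigmasterol (edgeR adjusted p 0.18). With Lta and Ltb it made up the 3 genes called between BPA and vehicle in knockouts (0.0148%), against 0 (0.0%) between stigmasterol and vehicle, where edgeR left 779 genes at an unadjusted p under 0.05 (3.85%). H2-Q1 was at 3.65, 1.87 and 2.33 CPM in knockouts with vehicle and at 0.142 to 0.834 CPM in wild types. Over the 21 genes of the 4 Mb stretch at an unadjusted p under 0.05, 43 of 63 values with BPA lay in the range of the 12 wild types, against 13 of 63 with stigmasterol and 10 of 63 with vehicle. The 21 genes were picked by this same contrast, so the counts describe them and test nothing. Outside the stretch, 821 genes were at an unadjusted p under 0.05. Their shares in the wild-type range were 80.4%, 72.5% and 67.2% in T25, T83 and T117 and 45.9%, 73.0% and 50.7% in T10, T15 and T93. Over all 188 genes tested in the stretch, the share in that range was 82.4%, 85.1% and 79.3% in T25, T83 and T117 and 62.8%, 77.1% and 74.5% in T10, T15 and T93. Over all 20254 genes the shares were 82.3%, 83.8% and 78.5% with BPA and 76.3%, 81.4% and 79.1% with stigmasterol.

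**Figure D3:**
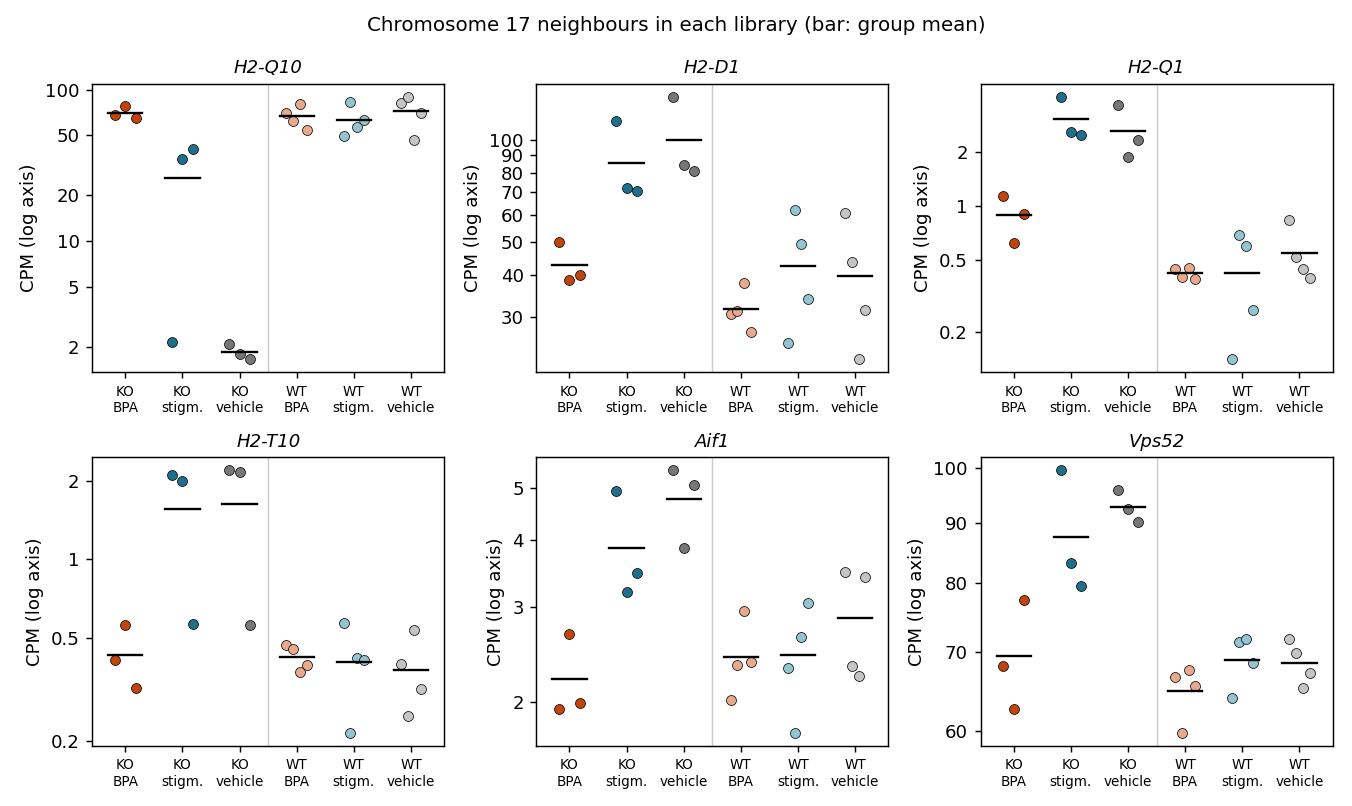
CPM on a log axis for H2-Q10, H2-D1, H2-Q1, H2-T10, Aif1 and Vps52, genes of the same stretch of chromosome 17, each point 1 library and each bar a group mean. The knockouts with BPA lie above those with stigmasterol for H2-Q10 and below them for the other genes, and for H2-Q10 T10 lies at 2.16 CPM, beside the vehicle knockouts.

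Other genes that separated knockout vehicle animals from wild types were looked at in the 6 libraries. By a rule that used neither BPA nor stigmasterol knockouts (all 3 vehicle knockouts at least 4-fold above, or below, all 12 wild types, with values under 0.1 CPM set to 0.1), there were 35 such genes, and the rule was set after values had been seen. On 18 of them all 6 libraries stood apart from the wild types in the same way, as did Rxfp1, the relaxin receptor, at 20.1, 23.6 and 21.5 CPM with BPA and 14.9, 22.3 and 20.8 CPM with stigmasterol. On 13 of them fewer BPA than stigmasterol libraries stood apart, and on 1, Pira2, more did. Per library, the number standing apart was 21, 25 and 31 of 35 for T25, T83 and T117 with BPA, and 30, 32 and 34 for T10, T15 and T93 with stigmasterol. Gm10263, a gene of chromosome 13, was at 0.0457, 0.112 and 5.85 CPM with BPA and 13.7, 8.12 and 7.92 CPM with stigmasterol, against at most 0.0608 CPM in wild types. Thus T117, unlike the other BPA animals, was on the knockout side for Gm10263, and without T117 edgeR called Gm10263, Gm11222 and Ccnd3-ps, all among these 35, along with Lta. Several of these genes are predicted or pseudogene loci, whose counts can be shared with near-identical copies.

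Beyond the lymphotoxins, the genes with the smallest p are given as values, since none of them passed the adjusted threshold. Among those higher with BPA, C1rl, a serine protease related to complement C1r, was at 0.663, 2.12 and 2.24 CPM with BPA and 0.567, 0.508 and 0.633 CPM with stigmasterol (log2 fold change 1.55 ± 0.319, edgeR adjusted p 0.599). T25 lay just above the stigmasterol animals and the other BPA animals well above them. Spp1 (osteopontin, a secreted matrix phosphoprotein) was at 35.9, 36.2 and 68.6 CPM with BPA and 6.13, 23.6 and 24.6 CPM with stigmasterol, with no overlap. Gucy2c, the guanylyl cyclase receptor for guanylin, was at 0.457, 1.83 and 3.0 CPM with BPA and 0.613, 0.221 and 0.291 CPM with stigmasterol, and T25 overlapped the stigmasterol range. Klf6, a zinc-finger transcription factor, was at 72.5, 87.8 and 82.9 CPM with BPA and 63.7, 64.7 and 67.2 CPM with stigmasterol. Ccng1 (cyclin G1, a p53 target) was at 73.7, 81.2 and 76.9 CPM with BPA and 64.3, 67.8 and 64.2 CPM with stigmasterol. In both Klf6 and Ccng1 the groups were separate but close, at log2 fold changes of 0.31 and 0.24. Slc36a1, a lysosomal amino acid transporter, was at 47.8, 48.6 and 51.2 CPM with BPA and 39.9, 43.7 and 40.6 CPM with stigmasterol, a log2 fold change of 0.25. Ccdc167 was at 15.5, 15 and 15.8 CPM with BPA and 12.2, 13.0 and 12.6 CPM with stigmasterol, and Zfp758, Snapc1 and Mir5125, a microRNA locus read here as longer RNA, differed by 0.46, 0.42 and 0.71 on the log2 scale. Besides C1rl, these genes had an edgeR adjusted p of 0.973.

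Among genes lower with BPA, Pgam2, the muscle form of phosphoglycerate mutase, was at 0.823, 0.827 and 0.713 CPM with BPA and 1.36, 1.55 and 1.64 CPM with stigmasterol (log2 fold change -0.94 ± 0.191, edgeR adjusted p 0.599). Mybpc2, a myosin-binding protein of fast muscle, was at 1.28, 0.738 and 1.43 CPM with BPA and 3.52, 1.66 and 5.47 CPM with stigmasterol. Its highest values were those of T10 and T93, which had the most Cdh16. Without them its log2 fold change of -1.63 became -0.53. The 13 skeletal muscle markers as a whole summed to 53.7, 51.3 and 77.3 CPM with BPA and to 52.8, 51.3 and 58.3 CPM with stigmasterol, so the list did not move with these genes. Vps52, a subunit of the complex that tethers vesicles to the Golgi and a gene of the chromosome 17 stretch, was at 68.1, 62.6 and 77.4 CPM with BPA and 99.6, 83.2 and 79.6 CPM with stigmasterol. Igfbp2, which binds insulin-like growth factors, was at 70.3, 73.3 and 82.3 CPM with BPA and 159, 70.7 and 404 CPM with stigmasterol. Its high values were those of T10 and T93, the libraries with the most Cdh16, and the log2 fold change of -1.49 became 0.09 without them. Brinp3 was likewise high in T10 and T93, at 0.183, 0.0447 and 0.394 CPM with BPA and 1.25, 0.221 and 2.24 CPM with stigmasterol. Oacyl, with 1.17, 0.447 and 0.664 CPM with BPA and 1.68, 1.96 and 2.38 CPM with stigmasterol, had a log2 fold change of -1.4. Except for Pgam2, the genes named here from Mybpc2 on had an edgeR adjusted p of 0.973. Over the 20 genes named by p in both directions, 47 of 60 values with BPA lay in the range of the 12 wild types, against 10 of 60 with stigmasterol and 27 of 60 with vehicle. Those genes were chosen by the contrast of BPA with stigmasterol, so the counts describe them and test nothing.

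**Figure D4:**
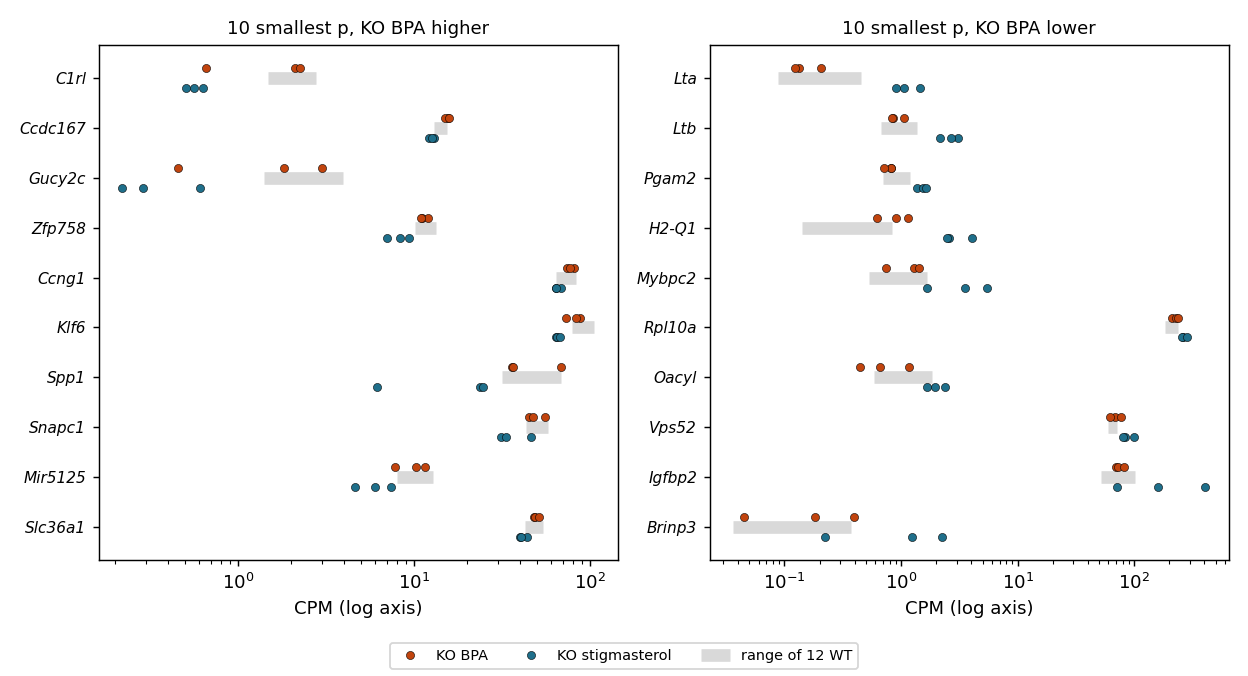
CPM on a log axis of the 10 genes in each direction with the smallest p, each point 1 knockout library (BPA above stigmasterol in each row), with the range of the 12 wild types as a grey bar. Lta and Ltb are the pair called, and 47 of the 60 BPA points lie on the grey bars, against 10 of the 60 stigmasterol points.

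Gene lists for the cell types and pathways of this tissue were then described, and none of the 39 lists, which do not hold Lta or Ltb, had a called gene. The median log2 fold change over all genes tested was -0.003, with 377 genes higher and 465 lower at an unadjusted p under 0.05. In the germ line, 31 of 32 genes of meiotic prophase had a negative log2 fold change, with a median of -0.546, and none passed an unadjusted p of 0.05. Sycp3, a protein of the synaptonemal complex, was at 80.4, 34.2 and 28.9 CPM with BPA and 121, 77.9 and 43.1 CPM with stigmasterol, with overlapping groups (unadjusted p 0.206). Stra8, which germ cells need for entry into meiosis, was at 193, 126 and 99.7 CPM with BPA and 207, 243 and 141 CPM with stigmasterol. The spread within each group was thus as wide as the gap between them. The same list had a median of -0.508 between BPA and stigmasterol in wild types. Undifferentiated spermatogonia, with Zbtb16 at 69.0, 95.7 and 78.4 CPM with BPA and 65.4, 74.9 and 78.6 CPM with stigmasterol, had a median of 0.14 over 24 genes. Differentiating spermatogonia had a median of -0.144 over 13 genes, and neither list had a gene at an unadjusted p under 0.05.

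Of the somatic cells, the 30 Sertoli genes had a median of 0.087. At an unadjusted p under 0.05, 1 of them (3.33%) was lower, against 2.3% of all genes, and none higher. Sox9, the transcription factor that sets Sertoli fate, was at 141 to 186 CPM with BPA and 147 to 168 CPM with stigmasterol. Of the 18 Leydig genes, 11 had a positive log2 fold change and 7 a negative one, with a median of 0.076. The list held 4 genes higher at an unadjusted p under 0.05 and none lower. That is 22.2% of the list at an unadjusted p under 0.05, against 4.16% of all genes, or 1.86% counting higher ones. Cyp11a1, the enzyme that starts steroid synthesis from cholesterol, was at 103, 140 and 113 CPM with BPA and 68.2, 97.5 and 75.7 CPM with stigmasterol (log2 fold change 0.56, unadjusted p 0.0155). Lhcgr, the luteinizing hormone receptor, was at 8.89, 19.4 and 10.8 CPM with BPA and 6.35, 7.9 and 7.47 CPM with stigmasterol. Hsd3b1, the next enzyme, was at 128, 185 and 155 CPM with BPA and 110, 114 and 104 CPM with stigmasterol, and Vcam1, an adhesion molecule, at 70.0, 96.4 and 84.9 CPM with BPA and 54.4, 48.7 and 57.4 CPM with stigmasterol. In these 4 the groups did not overlap, as in 6 of the 18 Leydig genes and 8.81% of all genes. Cyp17a1, in the same cells, did overlap, at 67.9, 160 and 93.7 CPM with BPA and 64.2, 145 and 85.1 CPM with stigmasterol. Star, another Leydig marker, also overlapped, at 38.9, 61.5 and 47.5 CPM with BPA and 40.9, 63.2 and 52.1 CPM with stigmasterol. In wild types the log2 fold change of Cyp11a1 was -0.49, and the difference between genotypes was 1.04 (unadjusted p 0.00136). All 4 genes had an edgeR adjusted p of 0.973 in knockouts.

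Macrophage markers summed to 176, 224 and 233 CPM with BPA and to 154, 197 and 195 CPM with stigmasterol, with overlapping groups. Of 18 markers, 4 were higher (Cd163, Lyz2, Fcgr1 and C1qb) and 1 lower (Aif1) at an unadjusted p under 0.05, with a median of 0.296. Both directions together make 27.8% of the list, against 4.16% of all genes. Lyz2, the lysozyme of myeloid cells, was at 22, 37.8 and 39.1 CPM with BPA and 16.1, 19.8 and 24 CPM with stigmasterol, and T25 lay between the stigmasterol animals. Cd163, a scavenger receptor for haemoglobin, was at 1.51, 1.9 and 2.41 CPM with BPA and 1.18, 1.1 and 1.32 CPM with stigmasterol. In the Cd163 values the groups did not overlap, as in 3 of the 18 macrophage markers and 8.81% of all genes.

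Sterol and nuclear receptor lists had no call. The 26 genes of cholesterol synthesis and SREBP2 control had 23 positive log2 fold changes. Their median of 0.113 was just above the upper quartile of all genes, 0.107. At an unadjusted p under 0.05, 1 was higher and 1 lower, together 7.69% of the list against 4.16% of all genes. Sc5d, a late desaturase of this pathway, was at 32.3, 31.4 and 32.4 CPM with BPA and 24.2, 26.0 and 22.3 CPM with stigmasterol (unadjusted p 0.0299). Knockouts with vehicle had 24.9, 32.0 and 31.7 CPM of Sc5d, on both sides. The 20 genes of LXR and sterol export had a median of -0.017, with Abca1, the cholesterol exporter, at 239, 256 and 321 CPM with BPA and 259, 248 and 255 CPM with stigmasterol. Only Scd1, an LXR and SREBP1 target, passed an unadjusted p of 0.05 in that list (5.0%, against 4.16% of all genes). It was at 6.35, 8.23 and 64.5 CPM with BPA and 12.3, 6.67 and 7.9 CPM with stigmasterol. Its difference rested on T117. The plant sterol transporter Abcg5 was at 0.206, 0.112 and 0.394 CPM with BPA and 0.409, 0.155 and 0.992 CPM with stigmasterol. The 14 genes of FXR and bile acids had a median of -0.087 and none at an unadjusted p under 0.05, and Nr0b2 was at 1.67, 2.15 and 2.39 CPM with BPA and 1.41, 1.72 and 1.59 CPM with stigmasterol.

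Estrogen and xenobiotic receptor genes, through which BPA is known to act, had no call either. The 16 genes of estrogen receptors and targets had a median of 0.036, with 6.25% of them at an unadjusted p under 0.05, against 4.16% of all genes. Igf1, the insulin-like growth factor, was the one at an unadjusted p under 0.05, at 129, 155 and 157 CPM with BPA and 100, 99.7 and 112 CPM with stigmasterol. Knockouts with vehicle were between those groups, at 112, 125 and 126 CPM of Igf1, with a value in common with stigmasterol. Esr2, the beta receptor, was at 2.79, 4.2 and 5.9 CPM with BPA and 2.2, 2.47 and 3.3 CPM with stigmasterol, and Esr1 overlapped. The 17 genes of xenobiotic receptors and BPA-handling enzymes had a median of -0.075. Cyp3a11, a hepatic cytochrome P450, was at 0.503, 0.112 and 0.221 CPM with BPA and at 0 reads in all 3 libraries with stigmasterol. The liver transcript Alb was also higher in those BPA libraries, at 18.9, 4.34 and 4.06 CPM against 0.862, 0.706 and 0.923 CPM with stigmasterol. Whether the Cyp3a11 reads came with liver RNA was not tested.

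Signalling lists of the testis had no call. The 20 genes of the retinoic acid pathway, which drives spermatogonia into meiosis, had a median of -0.108. Of them, 2 (10.0%) were lower at an unadjusted p under 0.05, against 2.3% of all genes, and none higher. Rdh10, which oxidizes retinol, was at 33.5, 35.7 and 31.3 CPM with BPA and 42.7, 44.2 and 37.6 CPM with stigmasterol. In Rdh10 the groups did not overlap, and its edgeR adjusted p was 0.973. The 20 genes of the GDNF niche and of AMH, inhibin and activin signalling had a median of 0.185. Igf1 and the activin antagonist Fst, 10.0% of the list, were higher at an unadjusted p under 0.05, against 1.86% of all genes. Fst was at 4.78, 6.08 and 18.0 CPM with BPA and 4.86, 4.59 and 5.11 CPM with stigmasterol, so that T117 alone was high. Of 25 genes of motile cilia and axonemal dyneins, 24 had a negative log2 fold change, with a median of -0.215. Of the 25, 1 (4.0%) was lower at an unadjusted p under 0.05, against 2.3% of all genes. Of 26 collagen and matrix genes, 23 had a positive log2 fold change, with a median of 0.156 and none at an unadjusted p under 0.05. The 18 genes of blood-testis barrier junctions had a median of 0.012, and the 30 of mitosis and DNA replication a median of -0.014, with none at an unadjusted p under 0.05 in either list.

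Cytosolic ribosomal protein genes shared a sign more than they differed in size. Of 83 genes, 78 had a negative log2 fold change, with a median of -0.109, and 14 (16.9%) were lower at an unadjusted p under 0.05, against 2.3% of all genes. Rpl10a, a protein of the large subunit, was at 210, 226 and 237 CPM with BPA and 260, 256 and 286 CPM with stigmasterol. Rpl13 was at 286, 284 and 291 CPM with BPA and 286, 319 and 351 CPM with stigmasterol. In wild types the list had a median of 0.046. Pseudogene copies of these genes can share reads with them.

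**Figure D5:**
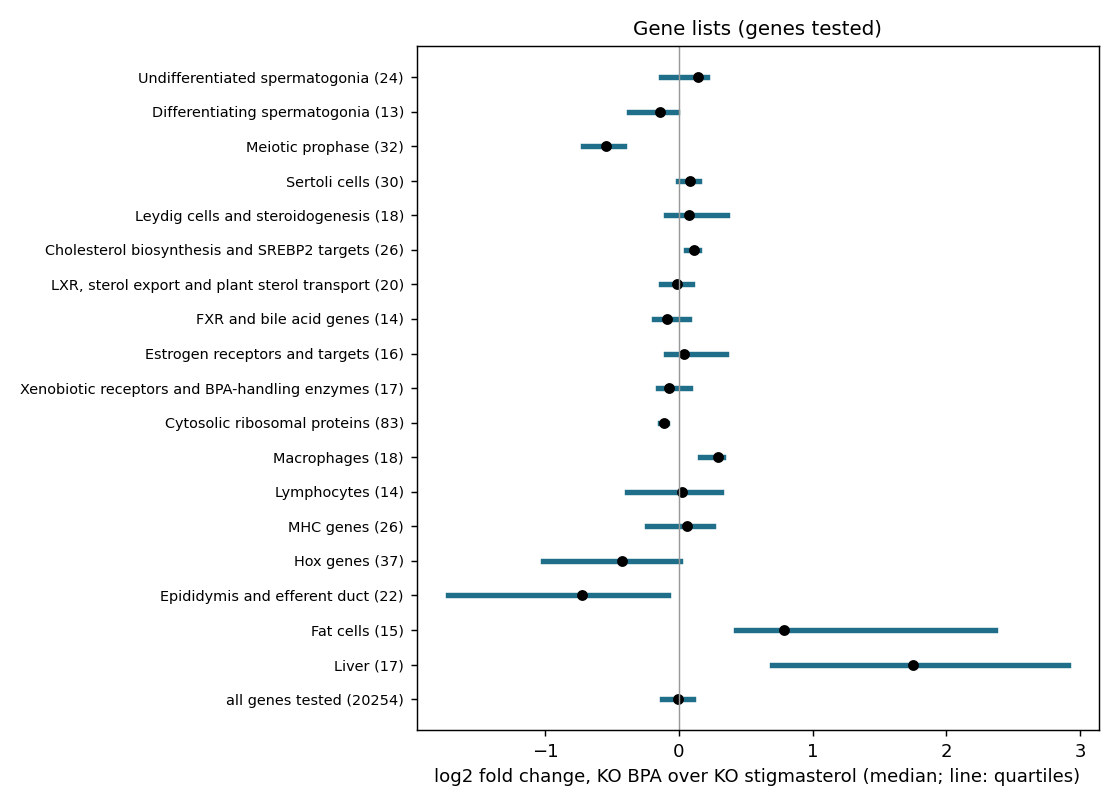
Median log2 fold change of BPA over stigmasterol in knockout testis for 18 of the gene lists and for all genes, with the quartiles as a line and the number of genes tested in brackets. Liver, at 1.752, and fat cells, at 0.79, lie farthest to the right, and epididymis, at -0.724, meiotic prophase and Hox genes farthest to the left.

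Markers of tissue other than testis differed between animals, and the summed liver genes did not overlap between the groups. The 22 epididymal and efferent duct genes summed to 126, 164 and 332 CPM with BPA and to 396, 132 and 803 CPM with stigmasterol. In wild types that list had a median log2 fold change of 1.183. Hox genes, which mark position along the body and duct, had 13 of 37 at an unadjusted p under 0.05, 6 higher and 7 lower, with a median of -0.424. That is 35.1%, against 4.16% of all genes. Hoxc8 was at 3.52, 4.13 and 4.3 CPM with BPA and 6.45, 3.71 and 26.8 CPM with stigmasterol, and Hoxd13 at 0.137, 0.112 and 3.66 CPM with BPA and 0.0454, 0.132 and 0.0684 CPM with stigmasterol. The high values were those of T93 and T10 for Hoxc8 and of T117 for Hoxd13. T117 also stood apart in fat genes, which summed to 69.9, 73.3 and 178 CPM with BPA and 91.9, 75.7 and 71.6 CPM with stigmasterol. At an unadjusted p under 0.05, 5 of 15 fat genes (33.3%) were higher, against 1.86% of all genes. In none of the 15 were the groups free of overlap. Fabp4, the fatty acid binding protein of adipocytes, was at 1.71, 2.73 and 35.8 CPM with BPA and 5.33, 0.662 and 1.3 CPM with stigmasterol. Alb, the albumin of liver, was at 18.9, 4.34 and 4.06 CPM with BPA and 0.862, 0.706 and 0.923 CPM with stigmasterol, and all 17 liver genes had a positive log2 fold change, with a median of 1.752. The liver genes summed to 73.5, 34 and 35.6 CPM with BPA and to 23.5, 28.2 and 24.2 CPM with stigmasterol, so the groups did not overlap, with T25 highest. Of the 17 liver genes, 1 (5.88%) passed an unadjusted p of 0.05, against 4.16% of all genes, and none was called. The groups did not overlap for 9 of the 17, against 8.81% of all genes. In wild types their median of 5.009 rested on T61 and T75, since the sums were 32.4, 142, 1240 and 20.9 CPM in T60, T75, T61 and T74 with BPA, against 23 to 28.2 CPM with stigmasterol. The part of liver and fat RNA in the other differences was not tested. With an epididymal score as a covariate both lymphotoxin genes were still called, Lta at a log2 fold change of -2.84 (edgeR adjusted p 0.0111) and Ltb at -1.38 (edgeR adjusted p 0.0165). Without T10 and T93, which leaves T15 as the only stigmasterol knockout, assumed to vary like the other groups, the log2 fold changes were -2.76 for Lta and -1.22 for Ltb. No gene was called by edgeR in that fit, at adjusted p of 0.532 for Lta and 0.998 for Ltb.

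The same 2 agents were compared in wild types, on animals that share no library with the knockouts. Between BPA and stigmasterol in 4 wild types each, no gene (0.0%) was called by edgeR, where 2746 genes (13.6%) passed an unadjusted p of 0.05 and DESeq2 called 348. Of the 842 genes at an unadjusted p under 0.05 in knockouts, 354, or 42.0%, had the same sign in wild types, against 56.1% of all genes. Of the 377 that were higher with BPA in knockouts, 56.0% had the same sign in wild types, and of the 465 lower ones 30.8% did. RNA of other tissue was spread unevenly in both genotypes. Epididymal genes had a median of -0.724 in knockouts and 1.183 in wild types, fat genes 0.79 and -0.098, and liver genes 1.752 and 5.009. The part of such RNA in these shares was not tested. In the test of the difference between genotypes, 1525 genes (7.53%) passed an unadjusted p of 0.05, and the 3 with the smallest p were Lta, Ltb and Adam9. Adam9, a membrane metalloprotease, was at 60.1, 59.1 and 68.6 CPM with BPA and 58.7, 52.9 and 54.1 CPM with stigmasterol in knockouts. Its difference between genotypes was 0.57 on the log2 scale, with an edgeR adjusted p of 0.182.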

How the data were processed

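RNA-seq was made from testes of single mice at postnatal day 10, per the labels, with an Illumina TruSeq RNA kit. Per the submitters' processing notes, CASAVA 1.8.2, Bowtie2 2.1.0 and TopHat2 2.0.10 were used on mm10. No source used here names the counting tool or the annotation release. The deposited counts per gene were analysed. The authors also deposited a normalized signal, log2 fold changes and p-values, which were not used here.

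Genes were kept by edgeR's filterByExpr (minimum count 10), which left 20254 of 32643. Counts were scaled by TMM and fitted with edgeR 4.0.16 in R 4.3.3, with limma 3.58.1, as 6 group means over 21 libraries, and each contrast was tested two-sided by quasi-likelihood with Benjamini-Hochberg adjustment over all genes tested at 0.05. CPM of genes use library sizes scaled by TMM, while the CPM given for the read floor use the total counts. The biological coefficient of variation was 19.2%. The fit was also run on simulated counts with known changes. Those counts held no RNA of neighbouring tissue and no loci that differ between animals, so they do not check the calls made here.

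The members and lists were chosen with earlier results of these data known. Named genes are the called ones, filled to 10 in each direction by p among genes with a conventional symbol and at least 1 CPM, then members of lists by p, markers and the 3 smallest p of the genotype difference. DESeq2 1.42.0, RLE scaling, voom, filters, covariates and left-out libraries were alternatives. Promoter windows hold 250 bases before and 50 after a gene's start.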

Additional observations from a re-analysis of the deposited data

Results flagged for a closer look

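Lta was the only gene that edgeR called for a treatment difference that itself differed between knockouts and wild types. The log2 difference between BPA and stigmasterol was -2.86 ± 0.38 in knockouts and 1.21 ± 0.34 in wild types, and the knockout minus wild-type difference was -4.07, with an edgeR adjusted p of 0.00426. Over 15 alternatives it lay between -4.31 and -3.46 and was called in 13, the call being kept with an epididymal score as a covariate (-4.04, edgeR adjusted p 0.0214). The other 2 alternatives leave groups of 1 animal, which are assumed to vary like the rest. Without T10 and T93, where T15 is the only stigmasterol knockout, it was -3.96 (edgeR adjusted p 0.0883). After leaving out the libraries high in Cdh16, where T25 and T15 face each other in knockouts, it was -3.46 (edgeR adjusted p 1.0). In this mixed strain, a different response to the agents and a strain variant at this locus that differs between the animals cannot be told apart.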

How the results depend on the processing

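The direction of the 20 named genes held in 338 of 339 recomputed values, the exception being Igfbp2 at 0.09 without T10 and T93. Those genes were chosen by p in this contrast and the refits share libraries, so the count is a description. Some values that kept their sign were near 0, as Igfbp2 at -0.01 without the libraries high in Cdh16. Brinp3 was at -0.11 without T10 and T93. The number of genes called between BPA and stigmasterol in knockouts was 2, and also 2 with RLE scaling, a filter of at least 1 CPM, no filter and voom. It was 6 with DESeq2, 3 with the meiotic score as a covariate and 8 with the epididymal score as a covariate. It was 5 with the 6 libraries alone, 0 with the 9 knockout libraries alone, 0 without T10 and T93 and 8 after leaving out every library with Cdh16 at or over 10 CPM (neither Lta, at -2.35, nor Ltb, at -1.34, both at an edgeR adjusted p of 1.0, with 1 animal left in each knockout group), and between 0 and 7 when each replicate was left out in turn (0 without T83 or T10, 1 without T93, 4 without T117, 7 without T15). In wild types it was 0, and 348 with DESeq2. For the difference between genotypes it was 1, with 38 by DESeq2, 6 with the meiotic score, 0 without T10 and T93, 0 without the Cdh16 libraries, and 1 to 8 with replicates left out (2 without T25 or T117, 8 without T15). The cause of these shifts was not tested, except that smaller fits hold fewer samples.

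Precision is limited by 3 animals a group and by depth: Lta rests on 5 to 9 reads in the BPA libraries, and a value below 3 reads is not told from 0. Libraries were not stranded by the kit named, so antisense partners cannot be told apart, and doses and litters are unknown here. No paired analysis was possible because the animal numbers name animals and are not shared between groups.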

Other observations

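A few loci were nearly on or off between animals and were called only in the fit of the 6 libraries alone. Gm13225 was at 15.2, 19.1 and 16.3 CPM with BPA and 0.885, 1.1 and 0.53 CPM with stigmasterol, while knockouts with vehicle were at 0.843, 0.629 and 15.3 CPM and wild types at 0.525 to 33.2 CPM. Eno1b was at 9.07, 10.2 and 9.94 CPM with BPA and 0.0227, 0.0441 and 0.0171 CPM with stigmasterol, while knockouts with vehicle were at 0.0201, 0.0484 and 9.58 CPM. Gm26825 went the other way, at 0.0457, 0.0447 and 0.0246 CPM with BPA and 10.6, 11.3 and 13.1 CPM with stigmasterol, with vehicle knockouts at 9.68, 0 and 0 CPM. In each of these the vehicle animals and the wild types were spread over both levels, while the 3 animals of each treated group lay on 1 side.

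Gm6472, an X-linked locus, was at 53.5, 27.4 and 0.07 CPM with BPA and 55.0, 61.3 and 61 CPM with stigmasterol, so T117 alone was near 0. Gm13341 was at 58.0 CPM in T93 and between 0.38 and 0.827 CPM in the other knockout libraries.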
